A study of Mus musculus with 3 samples.

Results

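The matrix metalloproteinases Mmp9, Mmp12, Mmp13, Mmp14 and Mmp19, the related metalloproteinase Adam8 and the tissue inhibitors Timp1 and Timp2 were described in the immune cells of the healthy mouse kidney. These 8 genes were chosen by name, with earlier results of these data known. They are 8 of the 32886 gene columns of a single-cell count table of 20266 cells. The cells came from kidneys of untreated, 10-week-old male C57BL/6J wild-type mice, which were dissected into the cortex, the outer (OM) and the inner medulla (IM), digested with collagenase and DNase and sorted for live cells carrying CD45, the common leukocyte antigen. Each region was prepared independently at Aachen, Bonn and Hamburg, which gave 3 datasets and 9 libraries (region by dataset), and the study asked whether a macrophage's transcriptome tells from which region it came. The number of mice behind each library is not given in the sources used here, and no group was treated. With the dataset as a block, p-values measure only how unevenly a regional difference recurs over the 3 datasets, with spread borrowed from other genes. Fits with a dataset left out rest on fewer datasets still. The spread between mice is not measured. Facility and kit version cannot be told apart, since the Aachen libraries were made with an earlier kit.

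Matrix metalloproteinases (MMPs) are zinc-dependent enzymes that are made as inactive precursors and, once activated, cut collagens, elastin and many secreted or membrane-bound proteins. Their activity outside the cell is held in check by the tissue inhibitors of metalloproteinases (TIMPs), which bind the active site. Macrophages are a known source of elastase (Mmp12) and collagenase (Mmp13), neutrophils store gelatinase (Mmp9) in granules, and TIMP-2 takes part, with the membrane-bound Mmp14, in activating the precursor of gelatinase A. The values below are RNA molecules (unique molecular identifiers, UMIs) and do not measure enzyme activity.

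The cells carried the study's own 23 cluster names. Resident macrophages are taken here as 4 clusters with 5367 cells in all and 168 to 1952 in a library: the 1996 cells of Macrophage_1, the 1680 of Macrophage_2, the 1418 of Macrophage_3 and the 273 of Isg+_Macrophage. The other myeloid clusters considered were Malat+_Macrophage (1043 cells), Monocyte (714 cells), the conventional dendritic cells cDC2 (668 cells) and cDC1 (303 cells), and Neutrophils (273 cells). Libraries held 2122809 to 15267126 UMIs, and the median resident macrophage held 783 to 4735 UMIs, with the lowest medians in the Aachen libraries. The 14 resident macrophage markers summed to between 209 and 303 UMIs per 10000 in the resident macrophages of the 9 libraries and to between 1.67 and 21.8 in T and B cells. They were also present in other myeloid clusters, at 25.1 to 53.6 in Monocyte, beside 36.7 to 69.8 for that cluster's own 11 markers, and at 7.52 to 23.3 in cDC2, beside 15.6 to 38.5 for its own 6. Their sum was 34.4 to 102 in Neutrophils, beside 376 to 759 for the 12 neutrophil markers. The Hamburg values are not whole numbers. Whether background RNA was subtracted there is not given in the sources used here and was not tested, so levels in Hamburg, also those in T and B cells, may not be on the scale of the other datasets. The barcode suffixes in the table number 10 (6 in Aachen, 3 in Bonn and 1 in Hamburg), and the 45 pairs of suffixes shared between 0 and 30 cell barcodes. Levels are given as counts per 1000000 UMIs of the named cells (CPM). CPM was compared within a gene only, because the tags come from the 3′ end and their yield differs between genes.

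Resident macrophages held most of the molecules of 4 members. They carried 79.6% of the 9686 Mmp12 UMIs, 77.1% of the 6178 Mmp13 UMIs, 73.2% of the 365 Mmp14 UMIs and 74.7% of the 5611 Timp2 UMIs in the table. The 1119 Mmp9 UMIs lay elsewhere, 38.9% in Neutrophils and 45.7% in the lymphocyte cluster T_cell_1, with 3.27% in resident macrophages. Of the 1025 Adam8 UMIs, 27.5% were in Neutrophils and 3.55% in resident macrophages. Mmp19, another secreted MMP, was rare, with 73.6 UMIs in 56 cells. Timp1, the soluble inhibitor that is induced in many injured tissues, was seen as 3 UMIs in all, each in T_cell_1 of the Hamburg cortex. Every myeloid cluster held 0 UMIs of it. Over all cells 3 counts correspond to 0.0507 CPM, a limit that covers counting error only.

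The macrophage elastase gene Mmp12 was highest in Macrophage_2 (781 ± 389 CPM, SD, n = 3 datasets), Macrophage_1 (696 ± 556 CPM) and Malat+_Macrophage (658 ± 871 CPM). It was lower in Neutrophils (200 ± 118 CPM), Isg+_Macrophage (147 ± 104 CPM) and Macrophage_3, the last at 32.0 CPM in Aachen, 165 CPM in Bonn and 211 CPM in Hamburg (136 ± 92.9 CPM). In each dataset Macrophage_3 lay below both Macrophage_1 and Macrophage_2, and its highest dataset lay below their lowest, 331 CPM. Next in the order of means came cDC2 with 64.3 ± 15.2 CPM, Monocyte with 34.0 ± 18.1 CPM and cDC1 with 12.7 ± 14.9 CPM. The ranges of all 8 pairs of neighbours in this order overlapped between the datasets. T and B cells, which should lack the gene, held 8.02 ± 8.18 CPM.

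Mmp13, the main interstitial collagenase of rodents, had a similar order with wide spreads: Malat+_Macrophage 665 ± 763 CPM, Macrophage_1 440 ± 406 CPM, Macrophage_2 274 ± 103 CPM, Isg+_Macrophage 231 ± 49.9 CPM and Macrophage_3 213 ± 161 CPM. Neutrophils (73.2 ± 85.4 CPM), cDC2 (19.0 ± 29.9 CPM), Monocyte (16.4 ± 6.45 CPM) and cDC1 (8.46 ± 7.49 CPM) were lower, and here too all neighbours overlapped. Much of the spread lay between datasets. In resident macrophages Mmp12 was 353 CPM in Aachen, 376 CPM in Bonn and 1036 CPM in Hamburg, and Mmp13 was 134, 269 and 638 CPM in the same order. Hamburg was the highest dataset for both.

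Mmp14, which encodes a membrane-anchored MMP, reached 62.5 ± 77.4 CPM in Isg+_Macrophage, the cluster named for interferon-stimulated genes, and this mean rested on Hamburg with 152 CPM against 15.6 CPM in Aachen and 19.97 CPM in Bonn. Macrophage_2 held 20.2 ± 10.7 CPM and Macrophage_1 13.5 ± 9.37 CPM, with Macrophage_2 above Macrophage_1 in 3 of 3 datasets. In Macrophage_3 only 6 UMIs were counted in 1418 cells, 1.30 ± 1.36 CPM. All neighbours in the order overlapped.

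In Macrophage_1, Macrophage_2, Macrophage_3 and Malat+_Macrophage the inhibitor Timp2 varied less between datasets, relative to its mean, than the 3 enzymes. In Monocyte and Neutrophils Timp2 varied more than Mmp12. It was highest in Macrophage_3 at 350 CPM in Aachen, 355 CPM in Bonn and 328 CPM in Hamburg (344 ± 14.4 CPM), where Mmp12 and Mmp14 were low. Macrophage_2 followed with 290 ± 29.2 CPM and Macrophage_1 with 284 ± 41.0 CPM, which overlapped. The ranges did not overlap between Macrophage_3 and Macrophage_2, nor between Macrophage_1 and Malat+_Macrophage (211 ± 13.5 CPM). Isg+_Macrophage held 210 ± 50.9 CPM and lay above Neutrophils (96.0 ± 83.2 CPM), while Monocyte (37.4 ± 28.0 CPM), cDC2 (21.4 ± 7.23 CPM) and cDC1 (6.07 ± 2.13 CPM) were low. T and B cells held 17.96 ± 6.13 CPM of Timp2. The clusters were built from these same cells and genes, so all levels between clusters are a description without a test.

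**Figure D1:**
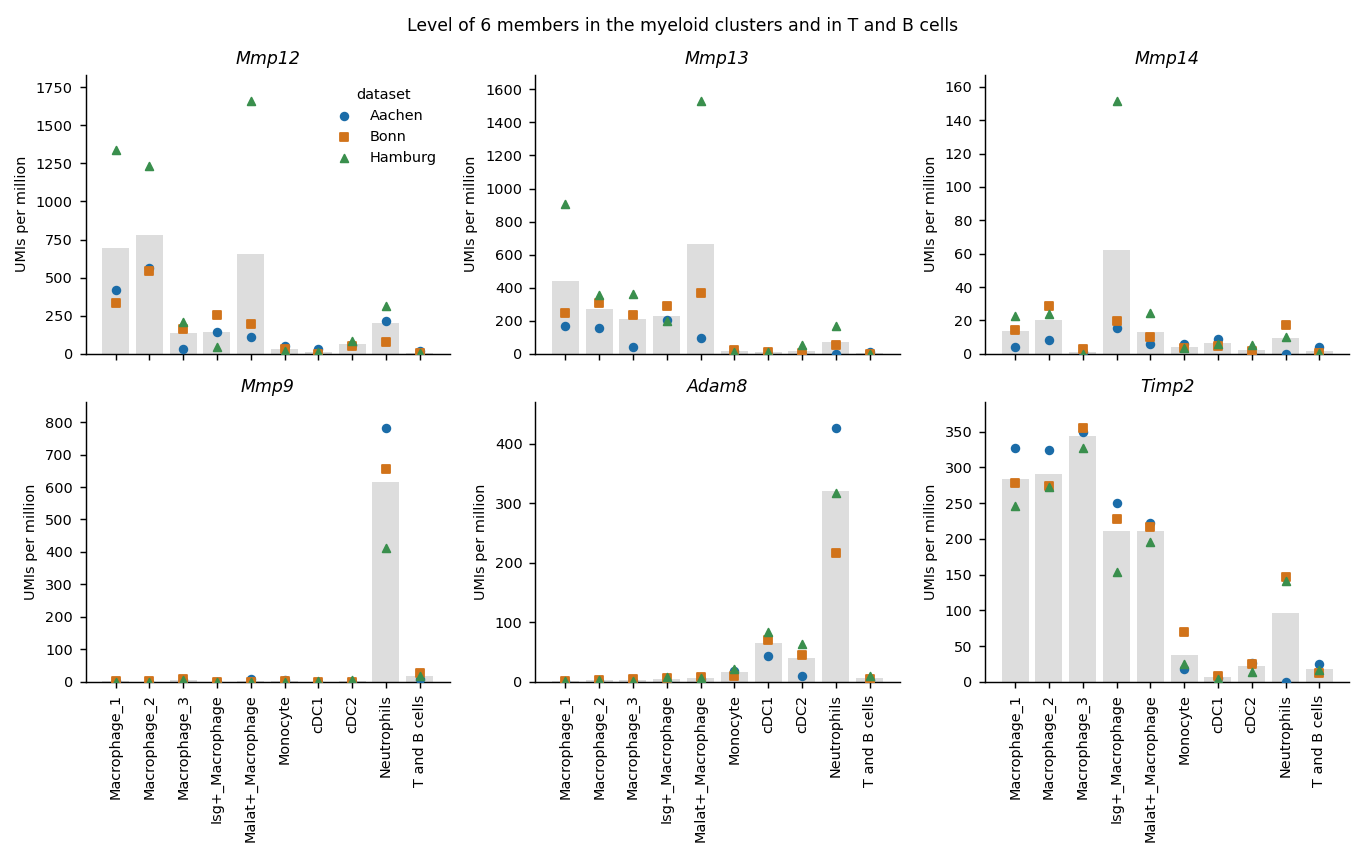
Level of 6 members (CPM, linear axes starting at 0) in the 9 myeloid clusters and in T and B cells, with bars for the mean over datasets and points for the Aachen, Bonn and Hamburg values. Mmp12 stands highest in Macrophage_1, Macrophage_2 and Malat+_Macrophage, Timp2 in the macrophage clusters and Mmp9 and Adam8 in Neutrophils, and Hamburg alone carries the high Mmp14 point of Isg+_Macrophage.

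Mmp12 and Mmp13 are neighbours in the genome. In GRCm38 with GENCODE vM21 annotation Mmp13 lies at chr9:7272514-7283331 and Mmp12 at chr9:7344381-7369499, both on the plus strand and 61049 bases apart. They belong to a row of 10 MMP genes on chromosome 9, of which 9 are in the table. The others were close to silent in these cells: Mmp1b, Mmp3 and Mmp27 had 0 UMIs, Mmp10 5 UMIs, Mmp20 2 UMIs and Mmp7 1.99 UMIs. Mmp8, the neutrophil collagenase, had 279 UMIs, 52.6% of them in Monocyte and 44.1% in Neutrophils, and 2 UMIs in resident macrophages. The 3′ end of Mmp12 overlaps Mmp1b on the opposite strand, and since Mmp1b had 0 UMIs no molecule was assigned to it there. The other members lie apart from each other: Mmp14 at chr14:54431612-54445364, Mmp19 at chr10:128790910-128800824, Mmp9 at chr2:164940780-164955850, Timp1 at chrX:20870166-20874735 (all plus strand), Adam8 at chr7:139978932-139992562 and Timp2 at chr11:118301069-118355740 (both minus strand). Mmp19 overlaps Tmem198b (203 UMIs), Adam8 overlaps Gm16201 (91.2 UMIs) and Timp1 lies within Syn1 (4.89 UMIs), each on the opposite strand. Timp2 overlaps Cep295nl on the same strand (15.9 UMIs), which does not touch its exons. The strand setting of the counting is not given in the sources used here.

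The start regions of the 2 neighbours are shown because a proximal AP-1 element is a well-known feature of several MMP genes. The windows are RefSeq's, from 250 bases before to 50 bases after an annotated start in GRCm38.p6, on the plus strand, and capitals mark matches to TGANTCA, which reads the same on both strands. The windows of Mmp13 (chr9:7272264-7272563), of the upstream Mmp12 start (chr9:7344147-7344446) and of the downstream Mmp12 start (chr9:7347124-7347423) read as follows.
Mmp13: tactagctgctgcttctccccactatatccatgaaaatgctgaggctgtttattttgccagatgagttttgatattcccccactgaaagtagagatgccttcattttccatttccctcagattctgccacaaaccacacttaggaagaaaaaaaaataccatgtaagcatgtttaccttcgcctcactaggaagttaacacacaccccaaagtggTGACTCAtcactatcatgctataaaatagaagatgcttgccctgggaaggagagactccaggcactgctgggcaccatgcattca
Mmp12, upstream start: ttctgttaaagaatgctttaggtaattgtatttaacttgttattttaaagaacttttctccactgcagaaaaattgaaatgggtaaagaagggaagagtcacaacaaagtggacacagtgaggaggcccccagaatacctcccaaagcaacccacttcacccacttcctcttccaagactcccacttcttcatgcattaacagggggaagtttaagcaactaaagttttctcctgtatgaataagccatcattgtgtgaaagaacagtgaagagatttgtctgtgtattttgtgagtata
Mmp12, downstream start: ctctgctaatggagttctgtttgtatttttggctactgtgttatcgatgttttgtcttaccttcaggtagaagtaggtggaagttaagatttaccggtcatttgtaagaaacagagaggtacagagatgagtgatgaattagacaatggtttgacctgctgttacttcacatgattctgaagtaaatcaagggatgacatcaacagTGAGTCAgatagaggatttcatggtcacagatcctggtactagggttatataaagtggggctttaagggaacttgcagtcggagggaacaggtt
The match begins 35 bases before the start in Mmp13 and 44 bases before the downstream start in Mmp12, and the upstream Mmp12 window holds none. Of the 6 members with a window, 2 had a match. Among all 32851 windows of the same length 2565 held it, 7.81%. A match is a run of letters and not a measured binding site, and 3′ tags do not tell which start was used.

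Within resident macrophages Mmp12 and Mmp14 were lower in the medulla than in the cortex. Mmp12 in the cortex was 685 CPM in Aachen, 525 CPM in Bonn and 1728 CPM in Hamburg. In the OM it was 152, 334 and 807 CPM in the same datasets, and in the IM 513, 269 and 749 CPM. Each of the 6 medullary libraries lay below the cortex of its own dataset, at 0.222 to 0.749 of it, although the Hamburg medulla lay above the Aachen and Bonn cortex, so that the groups overlapped. These levels rest on 273 to 1645 UMIs of Mmp12 in a library.

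Mmp14 in the cortex was 5.28 CPM in Aachen, 26.8 CPM in Bonn and 50.1 CPM in Hamburg, against 3.90, 8.78 and 25.4 CPM in the OM and 7.37, 12.3 and 29.3 CPM in the IM. It was below its own cortex in 5 of 6 medullary libraries, and the Aachen IM was above. The Aachen libraries add little to this, since they held 4, 7 and 5 UMIs of Mmp14 in cortex, OM and IM.

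Mmp13 was 298 CPM in the Aachen cortex, 317 CPM in the Bonn cortex and 712 CPM in the Hamburg cortex. The OM held 64.7, 375 and 600 CPM and the IM 134, 205 and 630 CPM. It was below its own cortex in 5 of 6 libraries, with the Bonn OM above, and the ratios ran from 0.217 to 1.18. Timp2 in the cortex was 325, 281 and 239 CPM in Aachen, Bonn and Hamburg, in the OM 323, 342 and 263 CPM, and in the IM 351, 289 and 251 CPM. Its ratios to the own cortex stayed between 0.994 and 1.22.

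**Figure D2:**
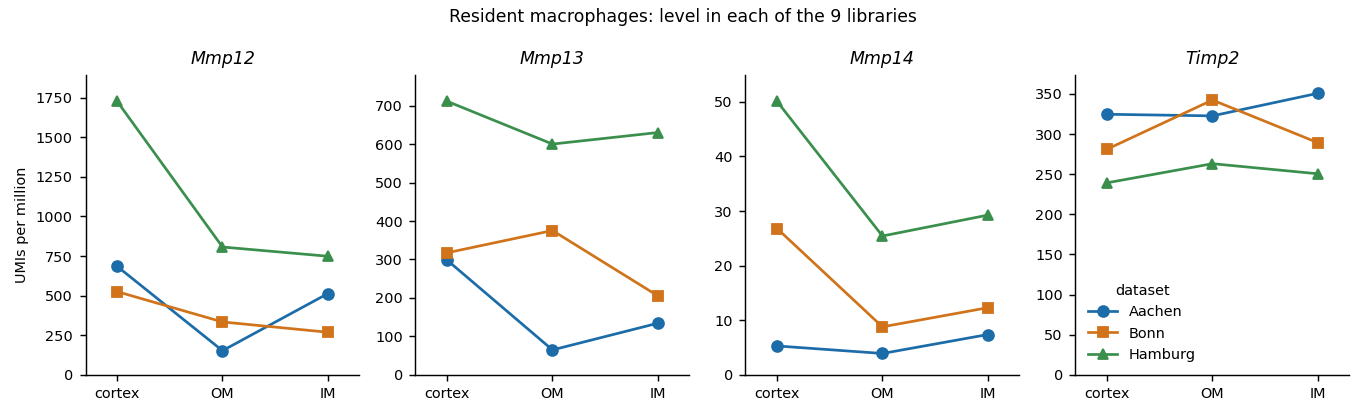
Level of Mmp12, Mmp13, Mmp14 and Timp2 (CPM within resident macrophages, linear axes starting at 0) in cortex, OM and IM, with one line for each dataset. All 6 medullary Mmp12 values lie below the cortex of their dataset, while the Timp2 lines are nearly level.

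The test was edgeR's quasi-likelihood test on the summed counts of each library with the dataset as a block, over 8687 genes, and Benjamini-Hochberg adjusted p-values are given. For the mean of both medullary regions against cortex, Mmp12 fell by 1.03 ± 0.22 on the log2 scale (SE, n = 9 libraries, adjusted p = 0.0359, edgeR) and Mmp14 fell by 0.99 ± 0.22 (adjusted p = 0.0382). Thus 2 of the 4 members that passed the filter on low counts were called, where 1.24% of all genes tested were called in either direction. The log2 difference of Mmp13 was -0.65 ± 0.26 (adjusted p = 0.370) and that of Timp2 was 0.11 ± 0.12 (adjusted p = 0.846). The remaining 4 members (Mmp9, Mmp19, Adam8 and Timp1) were below the filter. The median log2 difference over the 4 members tested was -0.82, beside 0.0058 over all genes tested.

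Taken apart, OM against cortex gave 1 call among the 4 members (Mmp12, -1.23 ± 0.27 on the log2 scale, adjusted p = 0.0437, edgeR), with 0.852% of all genes called. The Mmp12 call in the OM held in 8 of 19 other settings, with differences of -1.57 to -0.81, and was lost without the Hamburg dataset and without the Aachen cortex, Aachen OM, Bonn OM or any Hamburg library. It was also lost without the replicate block, without Macrophage_3 and with Malat+_Macrophage added. It was lost as well without the 632 of 5367 resident macrophages that held 2 or more UMIs of T cell, B cell or neutrophil markers (cells of mixed identity). Mmp14 had a difference of -1.15 ± 0.27 in the OM (adjusted p = 0.0624). IM against cortex gave 0 calls among the members by edgeR and by DESeq2 (0.196% of all genes called by edgeR), with 3 members at an unadjusted p under 0.05. Mmp12 there differed by -0.83 ± 0.26 (adjusted p = 0.327) and Mmp14 by -0.82 ± 0.25 (adjusted p = 0.271). OM against IM gave 0 calls among members and among all genes tested by edgeR (0% called, with 267 genes under 0.05 before adjustment), with 0 members at an unadjusted p under 0.05 and 0 called by DESeq2. The medulla call of Mmp12 held in 10 of 19 other settings. It was lost without the Hamburg dataset (-0.98, adjusted p = 0.327) and without any of the Aachen cortex, Bonn cortex, Hamburg cortex, Hamburg OM or Hamburg IM libraries (adjusted p = 0.0545 to 0.205), with differences of -0.93 to -1.17. The call of Mmp14 held in 5 of 18 settings, with adjusted p = 0.443 by DESeq2 and differences from -1.14 to -0.59. It was lost without the Bonn or Hamburg datasets and without any single library other than the Aachen cortex and Aachen IM (adjusted p = 0.0589 to 0.567). Both calls were also lost without the replicate block, without Macrophage_3 and with Malat+_Macrophage added (in the last case adjusted p = 0.0543 for Mmp12 and 0.0547 for Mmp14).

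The share of resident macrophages with at least 1 Mmp12 UMI moved the same way as the level, where each cell's value was first rounded to a whole number. To compare at equal depth, each cell was thinned to 500 UMIs, which left out cells below that number and kept at least 90.6% of a library. The share in the cortex was then 19.0% in Aachen (95% exact interval 15.6 to 22.8), 20.6% in Bonn (17.3 to 24.3) and 28.0% in Hamburg (22.3 to 34.3). In the OM it was 5.60% (4.57 to 6.77), 11.3% (6.95 to 17.1) and 17.8% (14.5 to 21.5), and in the IM 16.3% (13.4 to 19.6), 9.50% (7.35 to 12.04) and 16.6% (12.3 to 21.7). The intervals of cortex and medulla were apart in 5 of 6 pairs, all but the Aachen IM, and they cover counting error only. In T and B cells thinned in the same way the share was 0 to 0.526%, where the median depth before thinning was 645 to 2996 UMIs against 783 to 4735 in resident macrophages. Without thinning, the shares in resident macrophages ran from 8.15% in the Aachen OM to 56.0% in the Bonn cortex.

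The thinned share of cells with Mmp13 was 10.7%, 3.45% and 7.38% in cortex, OM and IM of the Aachen dataset. In the Bonn dataset it was 12.99%, 13.7% and 9.81%, and in the Hamburg dataset 16.4%, 16.6% and 15.8%. The exact intervals of the 3 Hamburg regions overlapped, and in T and B cells the share was 0 to 0.421%. Timp2 was seen in 12.2%, 14.6% and 19.2% of thinned cells of the Aachen regions, in 16.3%, 22.0% and 13.6% of the Bonn regions and in 11.2%, 13.04% and 10.04% of the Hamburg regions, without a common order. Its share in T and B cells was 0 to 1.24%.

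**Figure D3:**
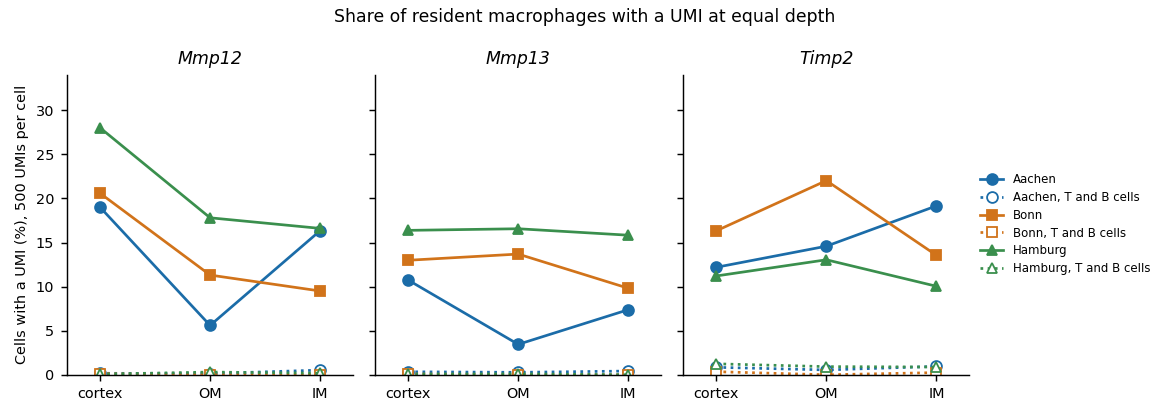
Share of resident macrophages (filled markers) and of T and B cells (open markers, dotted lines) with at least 1 UMI after each cell was thinned to 500 UMIs, in percent, by region and dataset. The Mmp12 share is highest in the cortex of each dataset, and T and B cells stay near 0.

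The molecules were unevenly spread over the cells. The top 10% of resident macrophages held 84.4% of the Mmp12 UMIs in Aachen, 59.4% in Bonn and 71.5% in Hamburg, and a single cell held up to 15, 37 and 85.0 UMIs. For Mmp13 these cells held 99.5%, 46.8% and 64.1%, and for Timp2 50.05%, 32.6% and 38.0%, the lowest of the 3 genes in each dataset. This measure also depends on how many UMIs a gene has. At equal depth Mmp13 was seen more often in cells with Mmp12 than in cells without it in 9 of 9 libraries. In the Hamburg IM the shares were 34.9% and 12.04%, and in the Aachen IM, where they were closest, 8.60% and 7.14%. With Timp2 the share was higher in Mmp12-positive cells in 3 of 9 libraries. These shares pool all 4 resident clusters and were not tested.

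The make-up of resident macrophages differed between the regions. Macrophage_3, the cluster with low Mmp12 and Mmp14, made up 0% of resident macrophages in the Aachen and Hamburg cortex and 7.05% in the Bonn cortex. In the OM it made up 44.7%, 42.9% and 23.0% in Aachen, Bonn and Hamburg, and in the IM 1.17%, 43.1% and 15.4%. Without Macrophage_3 the difference of Mmp12 between medulla and cortex was -0.75 (adjusted p = 0.145, edgeR) and that of Mmp14 was -0.59 (adjusted p = 0.435), and 0 members were called.

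Within Macrophage_1 alone Mmp12 fell by 1.14 ± 0.18 on the log2 scale (SE, n = 9 libraries, adjusted p = 0.000749, edgeR over 6978 genes). It was the only one of 4 members tested that was called, beside 0.516% of all genes. The levels in cortex, OM and IM were 683, 189 and 528 CPM in Aachen, 1054, 380 and 291 CPM in Bonn and 1904, 1091 and 1149 CPM in Hamburg. All 6 medullary libraries lay below their own cortex, at 0.276 to 0.773 of it, and the Bonn cortex held just 24 cells of this cluster. The OM (-1.32 ± 0.22, adjusted p = 0.00151, 0.473% of genes called) and the IM (-0.95 ± 0.22, adjusted p = 0.0429, 0.244% of genes called) were each called. The call held when any single dataset was left out, with differences of -1.35 to -0.91 and adjusted p = 0.0053 to 0.0149. Mmp13 differed by -0.80 ± 0.23 in Macrophage_1 (adjusted p = 0.125), Mmp14 by -0.85 ± 0.48 (adjusted p = 0.788) and Timp2 by -0.01 ± 0.16 (adjusted p = 0.999).

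In Macrophage_2 none of 3 members tested was called by edgeR or DESeq2 (0.02% of 4989 genes called by edgeR), with 1 member at an unadjusted p under 0.05. Mmp12 was 745, 424 and 552 CPM in cortex, OM and IM of Aachen, 539, 629 and 543 CPM in Bonn and 1980, 914 and 538 CPM in Hamburg. It lay below its own cortex in 4 of 6 libraries, with both Bonn libraries above, and the difference was -0.66 ± 0.18 (adjusted p = 0.289). Leaving out Bonn, where neither medullary library was lower, gave -1.05 (adjusted p = 1.8e-09, edgeR). That fit rests on fewer datasets and borrows spread from other genes, so its small adjusted p is not a measure of certainty over datasets. Mmp14, which was below the filter on low counts in Macrophage_2, lay above its own cortex in 4 of 6 libraries, with ratios of 0.545 to 1.43. Whether the difference of Mmp12 between regions is unequal in Macrophage_1 and Macrophage_2 was not tested.

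With Macrophage_1 and Macrophage_2 given equal weight in each library, so that their proportions could not enter, Mmp12 was below its own cortex in 6 of 6 libraries. The OM and IM ratios were 0.429 and 0.756 for the Aachen dataset, 0.634 and 0.524 for Bonn and 0.516 and 0.434 for Hamburg. In Bonn the Macrophage_2 ratios were 1.17 and 1.01, so the Bonn values lean on Macrophage_1, whose cortex rests on 106 UMIs in 24 cells. These cells were 4.45% of the resident macrophages of the Bonn cortex. Mmp14 had ratios of 1.21 and 1.70 on this scale in Bonn, beside 0.979 and 0.817 in Aachen and 0.699 and 0.741 in Hamburg. The Bonn cortex of Macrophage_1 held 0 Mmp14 UMIs in 24 cells, where 3 counts correspond to 29.8 CPM. This 0 enters the Bonn cortex level with equal weight, so the Bonn ratios do not show whether Mmp14 was lower there. For Mmp13 the ratios were 0.268 (OM) and 0.463 (IM) for Aachen, 1.09 and 0.440 for Bonn and 0.937 and 0.896 for Hamburg. Those of Timp2 ran from 0.790 to 1.19.

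In the other macrophage clusters the members were not called. Macrophage_3 had cells in the cortex in Bonn alone (38 cells) and could not be fitted. Its Mmp12 level in Bonn was 62.9 CPM in cortex, 174 CPM in OM and 172 CPM in IM, and the cortex value rests on 8 UMIs. Malat+_Macrophage held Mmp12 at 253, 100 and 99.0 CPM in cortex, OM and IM of Aachen, at 190, 437 and 125 CPM in Bonn and at 2443, 1361 and 1403 CPM in Hamburg (-0.50 ± 0.31, adjusted p = 0.996). Of 3 members tested there, 0 were called by edgeR or DESeq2 (0.0587% of genes by edgeR), and 1 had an unadjusted p under 0.05, Timp2, whose difference was 0.76 ± 0.25 (adjusted p = 0.768) and which lay above its own cortex in 5 of 6 libraries. In Isg+_Macrophage, fitted on 6 libraries, 0 of 3 members were called (0.379% of genes, edgeR), 1 had an unadjusted p under 0.05, and the difference of Timp2 was 0.94 ± 0.41 (adjusted p = 0.548).

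**Figure D4:**
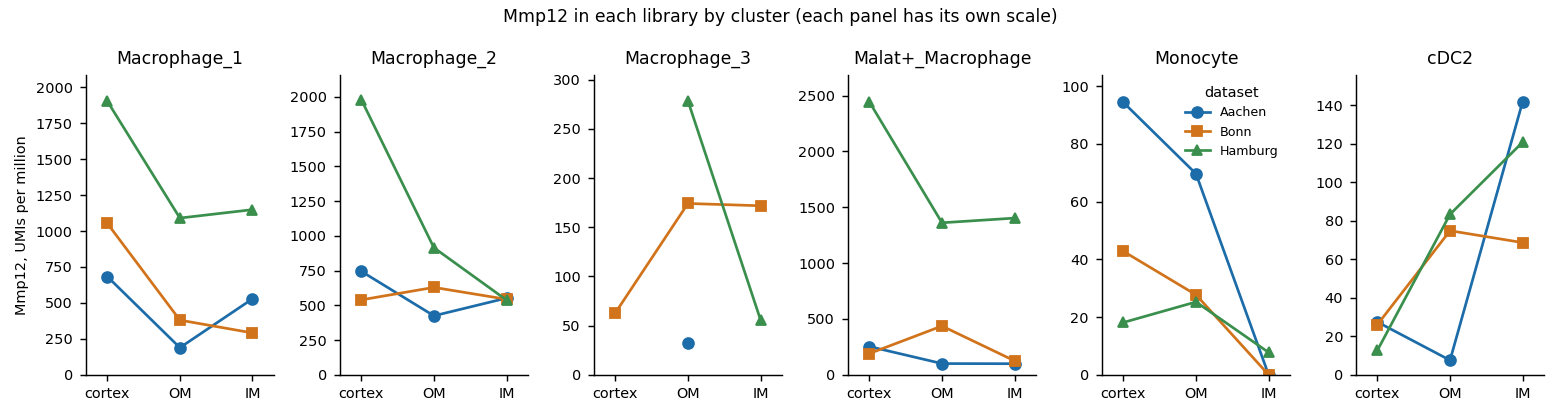
Level of Mmp12 (CPM, linear axes starting at 0) by region in 6 myeloid clusters, with one line for each dataset and only libraries with at least 20 cells of the cluster. The Macrophage_1 lines fall from cortex to medulla in all 3 datasets, and those of cDC2 rise in Bonn and Hamburg on an axis with a far lower range.

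In cDC2, the dendritic cells specialised in presenting antigen to helper T cells, Mmp12 was low and was higher in the medulla. The cortex held 27.4 CPM in Aachen, 26.1 CPM in Bonn and 12.7 CPM in Hamburg. The OM held 7.54, 74.9 and 83.4 CPM and the IM 142, 68.7 and 121 CPM. It was above its own cortex in 5 of 6 libraries, with the Aachen OM below, and the counts behind the levels were small, 2, 20 and 3.32 UMIs in the 3 cortex libraries and 1 to 64.6 UMIs in the medullary ones.

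The difference between medulla and cortex in cDC2 was 1.80 ± 0.38 on the log2 scale (SE, n = 9 libraries, adjusted p = 0.0372, edgeR over 4935 genes), the only call among 3 members tested, beside 0.304% of all genes. In the IM alone the difference was 2.06 ± 0.40 (adjusted p = 0.0334, 0.182% of genes called), and in the OM 1.55 ± 0.44 (adjusted p = 0.281, 0.101% of genes called). Without the Hamburg dataset it was 1.39 (adjusted p = 0.998), and by DESeq2 1.97 (adjusted p = 0.312). Few cells carried these molecules: in Hamburg 28 of 277 cells held all of the 119 UMIs and a single cell 30.7 of them. The unthinned share of cDC2 with a UMI was 9.52% in cortex, 9.38% in OM and 12% in IM of Hamburg, and 9.64%, 12.5% and 13.9% in Bonn.

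Resident macrophage markers were also found in cDC2. The 14 markers summed to 15.2 to 22.4 UMIs per 10000 in the 3 cortex libraries, 7.52 to 23.3 in the OM and 13.4 to 15.5 in the IM. The medians were 19.5, 14.1 and 13.6 in the same order, and the highest single library lay in the OM. At most 3 of the 14 were at 0 in a library. The part of these markers' source in the Mmp12 difference was not tested. When 97 of 668 cells with 2 or more UMIs of C1qa, C1qb or C1qc were left out, 94.6 of 244 Mmp12 UMIs were left, and the difference was 2.36 (adjusted p = 0.233, edgeR, 8 libraries). Mmp13 in cDC2 differed by 2.23 ± 0.73 (adjusted p = 0.527), and its molecules came almost wholly from the Hamburg OM and IM (39.0 and 37.4 UMIs against 0 to 3 elsewhere).

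The regional difference of Mmp12 in resident macrophages differed from that in cDC2. A single model of both cell classes, with a term for each library, gave a difference of the differences of -2.79 ± 0.30 on the log2 scale (resident macrophages minus cDC2, SE, adjusted p = 6.89e-16, edgeR over 9064 genes). It was called without each of the 3 datasets, at -3.75 to -2.24, and at -3.37 (adjusted p = 3.54e-08) without the cells holding C1q molecules. Without those cells the cDC2 cortex held 3 Mmp12 UMIs in Bonn and 2.41 in Hamburg. The Aachen cortex, with 18 cells left, was below the minimum of 20 cells. Mmp13 gave -2.56 ± 0.60 (adjusted p = 0.00358), which was lost without the Aachen dataset (adjusted p = 0.0570), without the Hamburg dataset (-0.98, adjusted p = 1) and without C1q-holding cells (-2.13, adjusted p = 0.906). These 2 members were called beside 0.938% of all genes. Mmp14 differed by -2.65 ± 1.36 (adjusted p = 0.771) and Timp2 by 0.55 ± 0.40 (adjusted p = 0.938). This model has 4 residual degrees of freedom, and its test also borrows spread from all genes tested. The SE for Mmp12 lies below that of the cDC2 fit alone (0.38), and the cDC2 cortex rests on few UMIs. The small adjusted p is therefore not a measure of certainty over 3 datasets.

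In Monocyte, the cells recruited from blood, Mmp12 was 94.3, 69.6 and 0 CPM in cortex, OM and IM of Aachen, 42.8, 27.7 and 0 CPM in Bonn and 18.1, 25.2 and 7.74 CPM in Hamburg. The IM was the lowest region in each dataset, with 0, 0 and 3.60 UMIs in 32, 90 and 102 cells, and 3 counts would correspond to 49.8 CPM in the Aachen IM and 6.47 CPM in the Bonn IM. The IM against cortex was called for Mmp12 (adjusted p = 0.00526, edgeR, 0.249% of 6029 genes called), the only one of 4 members. The fitted difference of -3.03 ± 0.66 depends on how counts of 0 are treated, and without Aachen it was -2.81 (adjusted p = 0.622), without Bonn -1.87 (adjusted p = 1.0), and by DESeq2 -3.11 (adjusted p = 1.0). For the mean of both medullary regions 0 of 4 members were called by edgeR or DESeq2 (0.332% of genes by edgeR), 2 had an unadjusted p under 0.05, and Mmp12 differed by -1.65 ± 0.49 (adjusted p = 0.165). Most Mmp12 molecules of Monocyte lay in cells that also held C1q molecules, which are resident macrophage markers: without the 97 of 714 cells with 2 or more UMIs of C1qa, C1qb or C1qc, 5.83 of 89.3 UMIs were left, all of them in Hamburg, and Mmp12 no longer passed the filter. In the Aachen and Bonn cortex, where 6 and 46 UMIs had been counted, 0 were left. Against Monocyte the regional difference of resident macrophages gave 0 calls among the members (0.657% of 9126 genes called by edgeR), with 1 member, Mmp13, at an unadjusted p under 0.05. For Mmp12 the difference of the differences was 0.67 ± 0.44 (adjusted p = 1).

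**Figure D5:**
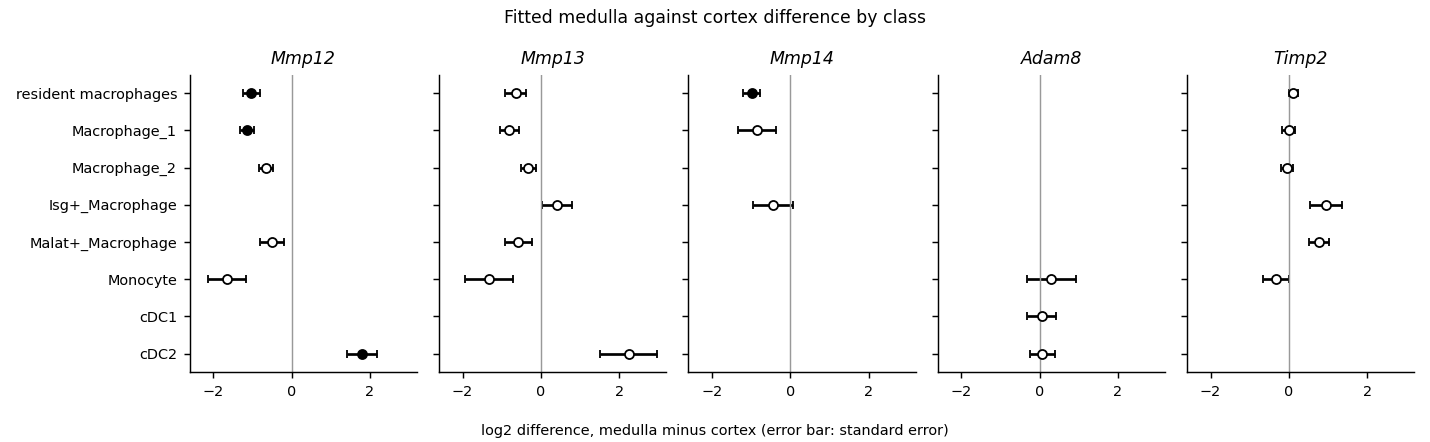
Difference of medulla (mean of OM and IM) minus cortex on the log2 scale with its SE for 5 members in each fitted cell class, with filled markers for adjusted p under 0.05 and a line at 0. Mmp12 lies below 0 in resident macrophages and Macrophage_1 and above 0 in cDC2, and Timp2 lies near 0 in resident macrophages.

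Mmp9, which cuts denatured and basement membrane collagens, stood out in Neutrophils at 781 CPM in Aachen, 656 CPM in Bonn and 413 CPM in Hamburg (617 ± 187 CPM). The next myeloid cluster, Macrophage_3, held 6.81 CPM, and the ranges did not overlap. The cluster is small, with 25 cells in Aachen, 51 in Bonn and 197 in Hamburg, and 44 of the 51 Bonn cells held a Mmp9 UMI. Only Hamburg had at least 20 neutrophils in each region, at 324, 413 and 539 CPM in cortex, OM and IM, so that regions could not be compared over datasets. The neutrophil clusters also held 34.4 to 102 UMIs of resident macrophage markers per 10000, and the part of these in their Mmp12, Mmp13 and Timp2 was not tested.

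Adam8, a membrane metalloproteinase that TIMPs do not typically inhibit, had the same leading cluster at 426 CPM in Aachen, 217 CPM in Bonn and 317 CPM in Hamburg (320 ± 105 CPM). It was followed by cDC1 (65.7 ± 20.3 CPM), cDC2 (39.4 ± 27.5 CPM) and Monocyte (16.0 ± 6.39 CPM). The macrophage clusters lay below, from 5.78 CPM in Malat+_Macrophage to 1.59 CPM in Macrophage_1. The ranges of Neutrophils and cDC1 did not overlap, nor did those of Monocyte and Malat+_Macrophage. Between medulla and cortex Adam8 was not called in any class tested: the log2 differences were 0.05 ± 0.37 in cDC1, the only member tested there (0.138% of genes called, edgeR), 0.07 ± 0.32 in cDC2 and 0.30 ± 0.62 in Monocyte. Adjusted p was at least 0.999 in each.

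Mmp19 was counted mainly in Monocyte (38.9 UMIs) and cDC1 (15.9 UMIs). In Monocyte it was 0 CPM in Aachen, 5.35 CPM in Bonn and 18.3 CPM in Hamburg (7.87 ± 9.39 CPM). Resident macrophages held 6.85 UMIs, all in Hamburg. It passed the filter on low counts in none of the classes fitted alone.

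Beyond the 8 members, 69 genes of the same system (other MMPs and inhibitors, ADAM and ADAMTS proteases, activators, receptors and substrates) were read out in resident macrophages. Of these 68 are in the table and 24 passed the filter on low counts. In the medulla against cortex 2 were higher (0.645% of all genes were), 1 was lower (0.599% of all genes were) and 21 were not called. Their median log2 difference was 0.18. Adam15, a disintegrin of cell contacts, rose by 0.94 ± 0.17 on the log2 scale (adjusted p = 0.0176, edgeR), from 21.1, 63.1 and 40.6 CPM in the cortex of Aachen, Bonn and Hamburg to 67.4, 108 and 75.6 CPM in the OM and 41.3, 106 and 75.5 CPM in the IM. Adam33 rose by 0.95 (adjusted p = 0.0255), from 27.7, 24.8 and 11.5 CPM to 60.2, 49.4 and 32.1 CPM in the OM and 33.9, 42.5 and 18.2 CPM in the IM. All 6 medullary libraries lay above their own cortex for both genes, against the direction of Mmp12 in the same cells.

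Adam23, a family member without protease activity, was the gene that was lower (adjusted p = 0.0488, edgeR). It rested on 64.6 UMIs, from 13.2, 11.5 and 5.05 CPM in the cortex to 0, 3.29 and 1.77 CPM in the OM and 4.42, 1.07 and 2.96 CPM in the IM. The calls of Adam15, Adam33 and Adam23 held in 11 of 19, 5 of 19 and 3 of 13 other settings. Adam15 was lost without Bonn (adjusted p = 0.0511), without Hamburg (adjusted p = 0.169) and at equal depth (0.83, adjusted p = 0.507), without Macrophage_3 (adjusted p = 0.0819), without the replicate block, and also without the Bonn cortex, Hamburg cortex or Hamburg IM library (adjusted p = 0.0517 to 0.110). Adam33 was lost without Bonn (adjusted p = 0.251) or Hamburg (adjusted p = 0.232) and without any single library other than the Aachen IM and Bonn OM (adjusted p = 0.0518 to 0.283). It was also lost without Macrophage_3 (0.67, adjusted p = 0.349), with Malat+_Macrophage (adjusted p = 0.0614), by DESeq2 (adjusted p = 0.147), at equal depth (adjusted p = 0.161) and without the replicate block. Adam23 was lost without Hamburg (adjusted p = 0.218) and without the Aachen OM, Bonn OM, Bonn IM or any Hamburg library (adjusted p = 0.0725 to 0.326), and also without Macrophage_3 (adjusted p = 0.151), with Malat+_Macrophage (adjusted p = 0.183) and by DESeq2 (adjusted p = 0.161).

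The list's other MMPs were nearly absent from resident macrophages. None of the 12 other secreted MMPs in the table passed the filter, and of the membrane-anchored ones only Mmp25 did, at 7.07 CPM. Of the other inhibitors, Timp3 was at 3.61 CPM, Reck at 0.214 CPM and Timp4 and A2m at 0. The highest levels on the list were those of the TIMP-1 receptor partner Cd63 (327 CPM), the MMP inducer Bsg (235 CPM), the integrin chains Itgb1 (189 CPM) and Itgav (116 CPM), and Plau (137 CPM), the urokinase that turns plasminogen into plasmin. Plasminogen itself, Plg, had 1 UMI in these cells.

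The pattern of each member over 27 groups (9 myeloid clusters by 3 regions) was set beside that of 6236 genes. The measure was Pearson's r of log2 levels after centring each gene on its dataset, and the groups share libraries and depth, so no p is given. Mmp12 was most like Blnk (r = 0.887), Gadd45g (0.882) and Csf2ra (0.873). Mmp13 was most like C3ar1 (0.962), Creb5 (0.957) and Blnk (0.954), and Timp2 was most like Ms4a7 (0.971), Lilra5 (0.970) and C1qc (0.969). C3ar1, Ms4a7 and C1qc are among the 14 resident macrophage markers. Mmp9 was most like Arg2 (0.987), Gm20406 (0.986) and Lrg1 (0.985), and Adam8 like S100a11 (0.924), Dhrs9 (0.915) and Pstpip1 (0.905). Mmp14 had the weakest neighbours, Gm4955 (0.786), Fam26f (0.748) and Pydc4 (0.739). Among the members r was 0.847 for Mmp12 with Mmp13, 0.801 for Mmp12 with Timp2, 0.935 for Mmp13 with Timp2 and 0.718 for Mmp9 with Adam8.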

How the data were processed

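Single-cell RNA-seq was analysed from 3 deposited samples (cortex, OM, IM), held in 1 table with cell, region, cluster and facility columns. The authors made it with Cell Ranger on mm10 and Seurat, after dropping cells under 200 or over 4000 genes or above 20% mitochondrial reads. The deposited values are estimated counts per gene and cell: all non-zero values are whole in Aachen and Bonn, and 0.118% are exactly whole in Hamburg, where 85.1% are whole or at most 0.1 below a whole number. They were summed per library and cell class (at least 20 cells) and the sums rounded. For shares of cells and for thinning, each value was rounded first, so that values below 0.5 counted as 0. How the authors treated doublets is not given in the sources used here, and no doublet caller was run. Leaving out cells of mixed identity (at least 2 UMIs of T cell, B cell or neutrophil markers) was the alternative that bears on them. Clusters were the authors'. No per-sample value column was left unused (0). The design named Facility as the replicate, since each region is 1 deposited sample.

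Sums were tested with edgeR 4.0.16 (R 4.3.3, limma 3.58.1): filterByExpr, TMM, glmQLFit and glmQLFTest, dataset as block, Benjamini-Hochberg over all genes tested, threshold 0.05. Libraries of the same dataset deviated together (correlations 0.787 to 0.900 over 9 pairs), so the dataset pairs them. The difference between classes was tested in 1 model with library terms. DESeq2 1.42.0, no filter, no block, thinning to 500 UMIs (seed 1), cluster choice, cells of mixed identity and leaving out libraries or datasets were alternatives. Levels used Python 3.11.15, numpy 2.4.6, pandas 2.3.3 and scipy 1.17.1, figures matplotlib 3.10.9. On simulated counts for the resident macrophage comparison (7955 genes, 200 changed), 85.9% of 2-fold and 100% of 4-fold changes were recovered, with 7 false calls. These counts held no difference between datasets, an equal change in every medullary library and the trended dispersion only. The recovery checks the procedure and does not give the power in the real data.

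Named genes were the 8 members, pathway genes called in resident macrophages or among the 5 highest in mean level, and the 3 genes most like each member. Members and lists were chosen with earlier results of these data known. Precision is limited by UMIs per class, given beside the values, and by 3 datasets.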

Additional observations from a re-analysis of the deposited data

Results flagged for a closer look

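The difference between medulla and cortex was unequal in resident macrophages and cDC2 for 2 members, by the test of the difference itself. For Mmp12 the resident macrophage difference minus that of cDC2 was -2.79 on the log2 scale, with resident macrophages lower in 6 of 6 medullary libraries and cDC2 higher in 5 of 6. For Mmp13 it was -2.56, and the Hamburg medulla held nearly all Mmp13 molecules of cDC2. In Hamburg 14 of 277 cDC2 held a Mmp13 UMI, and a single cell held 31.8 of the 78.1 UMIs. The Mmp13 call was lost without the Aachen dataset, without the Hamburg dataset and without C1q-holding cells.

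Signal was also found in lymphoid clusters that the comparisons did not use, in each dataset above the highest resident macrophage dataset and with more than 3 UMIs. For Mmp9, where that highest dataset was 3.68 CPM, these were T_cell_1 with 67.2 ± 39.8 CPM (SD, n = 3 datasets) and NK_cell_2 with 39.6 ± 13.8 CPM. T_cell_1 held 511 UMIs of Mmp9 in 2375 cells, at 30.5 CPM in Aachen, 110 CPM in Bonn and 61.5 CPM in Hamburg. Its neutrophil markers summed to 0 to 4.25 UMIs per 10000 in a library, against 376 to 759 in Neutrophils, and their part in the Mmp9 signal was not tested. For Adam8, with 3.03 CPM as the highest resident macrophage dataset, these were ILC2 with 65.5 ± 30.4 CPM (80.3 UMIs in 424 cells) and T_cell_2 with 7.99 ± 2.64 CPM (41.4 UMIs in 1664 cells).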

How the results depend on the processing

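In resident macrophages the number of members called in the medulla (2 in the report) was 1 by DESeq2 and at equal depth, 0 without Macrophage_3 and with Malat+_Macrophage added, and 0 to 2 when a library or dataset was left out. For the OM (1) it was 3 with no filter on low counts, 0 without cells of mixed identity, without Macrophage_3 and with Malat+_Macrophage, and 0 to 2 with a library or dataset left out. For the IM (0) it was 2 with no filter and 0 to 2 with one left out. With no filter Macrophage_1 gave 2 and Macrophage_2 gave 1. Leaving out a dataset gave 0 to 1 in Macrophage_2 and 0 to 1 in cDC2, and cDC2 gave 0 by DESeq2 and 0 without C1q-holding cells. Fits without the replicate block, which ignore the pairing by dataset, gave 0 calls in resident macrophages (medulla and OM), in Macrophage_1 and in cDC2. The share of all genes called in each other setting is not given here. The counts in this section therefore do not separate a change in the members from a general rise or fall in calls.

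For the comparison with cDC2 (2) the count was 1 without C1q-holding cells and 1 to 2 with a dataset left out. The Mmp12 difference between resident macrophages and Monocyte (0.67) changed sign to -0.56 without C1q-holding cells and to -0.31 without Bonn, within a range of -0.31 to 3.63 over datasets left out. At equal depth Mmp9 in Neutrophils was 821 CPM over Bonn and Hamburg, which before thinning averaged 535 CPM (Aachen had too few cells left), and Timp2 in Macrophage_3 was 366 CPM. With Macrophage_3 given equal weight as well, the Bonn ratios of OM and IM to cortex were 0.715 and 0.608 for Mmp12, 1.06 and 0.486 for Mmp13 and 1.09 and 0.826 for Timp2, against 0.634 and 0.524, 1.09 and 0.440, and 1.19 and 0.790 with Macrophage_1 and Macrophage_2. The Bonn ratios of Mmp14 (OM and IM) were 1.30 and 1.81 with Macrophage_3 included, against 1.21 and 1.70 without it. The causes of these shifts were not tested. Steps with C1q-holding cells and with 2 clusters at equal weight were chosen after seeing the data. Not every member was followed over the other settings in every class. Among the differences that were followed, only that of Mmp12 between resident macrophages and Monocyte changed direction. Timp2 in resident macrophages stayed between 0.04 and 0.20 in the fits followed. The equal weights were not fitted. With them Mmp14 in the Bonn OM and IM lay above its own cortex, a level that includes 0 UMIs in the 24 cortex cells of Macrophage_1. Over all resident macrophages these Mmp14 ratios were 0.328 and 0.459. For Timp2 the Bonn IM ratio was 1.03 over all resident macrophages and 0.790 with Macrophage_1 and Macrophage_2 at equal weight.

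Neutrophils and Macrophage_3 could not be fitted, and datasets could not be left out for Isg+_Macrophage and cDC1. Low counts limit Mmp14 in Aachen, Mmp12 in cDC2 and Monocyte, and Mmp19 and Timp1 throughout.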

Other observations

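Mmp9 in T_cell_1 was 12.02, 30.6 and 42.9 CPM in cortex, OM and IM of Aachen, 109, 158 and 93.3 CPM in Bonn and 65.2, 49.3 and 61.7 CPM in Hamburg, without a common order of regions. Adam8 in T_cell_4 was 17.1 CPM in Aachen, 71.9 CPM in Bonn and 86.7 CPM in Hamburg, from 44.3 UMIs in 161 cells. In the cluster pDC (plasmacytoid dendritic cells), read in the 2 datasets that held it in number (90 cells), Timp2 was at 153 ± 19.1 CPM from 106 UMIs.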
